A study of Arabidopsis thaliana with 12 samples.

Results

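The experiment described here set the calmodulin antagonist W7 against its solvent DMSO in Arabidopsis thaliana seedlings that had all been given lanthanum ions (La) first. It comprised 3 of the 12 arrays of the series, chosen by their labels as the arrays with La plus W7 RNA in 1 channel and La plus DMSO RNA in the other. The series also held 3 arrays each of trifluoperazine (TFP) against DMSO, W7 against DMSO and W7 against La plus W7, of which 11 of the 12 arrays had distinct scanner files. Treatment lasted 1 h, and each array was an independent biological repeat per the design text. Both groups of the La experiment carried the La pretreatment, so its ratio shows W7 against solvent on that background and not the effect of La. The sources used here did not give doses, seedling age or the length of the La pretreatment. Whole seedlings were used, so fewer cells of a type and less RNA per cell cannot be told apart.

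Calmodulin is a small protein that binds calcium ions and then docks onto target proteins, among them kinases, transporters and transcription factors. W7, a naphthalenesulfonamide, and TFP, a phenothiazine, bind calcium-loaded calmodulin and keep it from its targets. La blocks calcium channels of the plasma membrane, which limits entry of calcium from outside the cell. The labels write W7 after La as W7-Ca.

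Each array carried 11926 EST clones (cDNA fragments read from expressed transcripts), and 9180 of them were bright enough to be tested. The clone names could not be paired with genes, since 0 of the 11926 matched the gene table used, so clones are reported by their names. Values are log2 ratios of La plus W7 over La plus DMSO, where 1 is a 2-fold higher and -1 a 2-fold lower level. The W7 RNA carried Cy3 on array 1 and Cy5 on arrays 2 and 3, and all ratios were turned to the same direction. Their correlation with the authors' deposited log2 ratios was 0.993, 0.995 and 0.998 on arrays 1, 2 and 3. Median spot intensity in the W7 channel was 1558, 880.4 and 919.8 scanner units, and the 95th percentile of the blank spots in that channel was 502.5, 180.5 and 126.3. The number of arrays limits the precision.

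Between La plus W7 and La plus DMSO the differences were small and repeated poorly from array to array. The common limma fit of 11 arrays called 0 of 9180 clones at an adjusted p under 0.05 (0%). At an unadjusted p under 0.05 there were 220 clones (2.4%), of which 174 were higher (1.9%) and 46 lower (0.501%). Were no clone to differ, that threshold would pass 5% of clones on average, and 2.4% is below that share. Array weights gave 1 call, arrays 2 and 3 alone gave 4, and the 3 arrays alone with a dye term, on 1 residual degree of freedom, gave 102, of which 91 were at 1 or more or at -1 or less on array 1. The lowest adjusted p was 0.515, and fitted log2 ratios ran from -0.88 to 1.56. No clone was 2-fold higher on all 3 arrays, and none was 2-fold lower on all 3.

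The intervals describe the precision of the common fit, in which all experiments shared a single spread per clone. The median SD per clone was 0.271 over the La plus W7 arrays. It was 0.39 for TFP, 0.401 for W7 and 0.384 for W7 against La plus W7. The intervals also make no allowance for the shift by slide position on array 1 described below. The distance from the fitted ratio to either end of its 95% interval had a median of 0.53 in log2 units. For 8179 clones (89.1%) the whole interval lay within a 2-fold change either way. For the other clones a 2-fold change lay inside the interval, so the common fit did not bound them that tightly.

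The 3 arrays differed from each other in spread and in the clones that stood out. The SD over clones was 0.47 on array 1, 0.30 on array 2 and 0.33 on array 3. A log2 ratio of 1 or more was reached by 337 clones on array 1, 28 on array 2 and 36 on array 3. At the other end, 52, 23 and 66 clones stood at -1 or less. Of all clones at 1 or more on any array, 387 were so on exactly 1 array and 7 on exactly 2.

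Across clones, array 1 had a Pearson correlation of -0.142 with array 2 and of -0.0959 with array 3, and arrays 2 and 3 had one of 0.157. Clones are not independent replicates, and arrays 2 and 3 also share a dye orientation and a scan set (the image folder named in the scanner header). The mean over the 3 pairs was -0.027, while the mean over pairs within TFP, within W7 and within W7 against La plus W7 was 0.338, 0.342 and 0.384. Arrays 2 and 3 correlated with TFP arrays 1 and 2, of the same dye orientation and scan set, at 0.154 to 0.297. Array 1 shared its dye orientation only with arrays of other scan sets. Its correlations with those ran from -0.1 for W7 against La plus W7 array 2 to 0.308 for W7 array 3. A log2 ratio above 0 on all 3 arrays was found for 1046 clones (11.4%), and below 0 on all 3 for 1044 (11.4%).

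**Figure D1:**
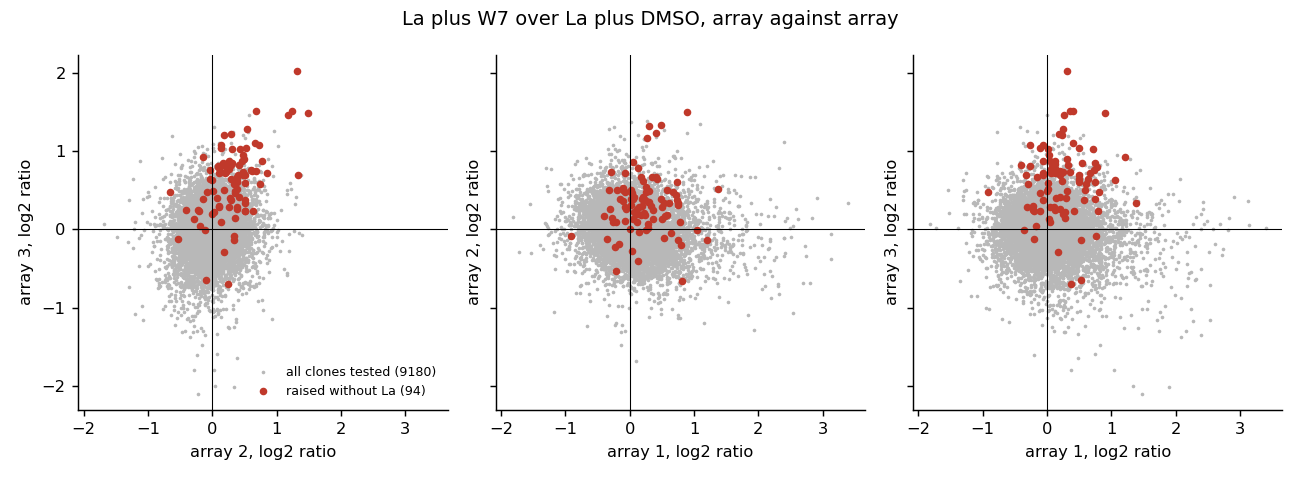
Log2 ratio of La plus W7 over La plus DMSO on one array (x axis) against another (y axis) for the 9180 clones tested (grey) and the 94 clones at 1 or more on every TFP and W7 array without La (red). Arrays 2 and 3 share an upper right tail of red points, whereas array 1 has a long grey tail to the right that stays near 0 on the other arrays.

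The high tail of array 1 lay in one area of the slide. Spots are printed in 32 blocks, set in 4 columns of 8. The first column held 2780 of the tested clones (30.3%) and 290 of the 337 clones at 1 or more on array 1 (86.1%). On arrays 2 and 3 the same column held 4 of 28 and 4 of 36 such clones. The column's median log2 ratio was 0.25 on array 1, -0.076 on array 2 and -0.055 on array 3. The 337 clones had medians of -0.098 and -0.12 on arrays 2 and 3, and 130 of them stood at 0 or less on both. Loess within each print block in place of the whole array left 131 clones at 1 or more on array 1, with 27 and 31 on arrays 2 and 3. The part of slide position or brightness in the ratios of single clones was not tested beyond these values.

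**Figure D2:**
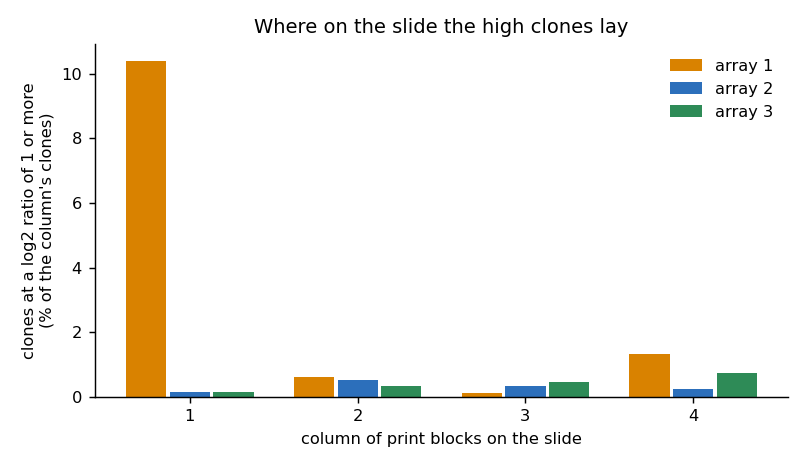
Share of the tested clones in each of the 4 columns of print blocks (x axis) that had a log2 ratio of 1 or more (y axis, percent), for the 3 La plus W7 arrays. Array 1 reaches 10.4% in the first column, and its next highest column is the fourth with 1.32%.

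Among clones with the same sign on all 3 arrays and an unadjusted p under 0.05, 97 were higher and 37 lower. The 10 highest fitted ratios ran from 1.11 to 1.56, and 9 of these 10 clones had their largest value on array 1. Without array 1 the fitted ratios of these 9 ran from 0.30 for W43233 to 0.84 for T21224, with 0.40 for T21744 and 0.44 for W43305. That fit took its dye term from the TFP arrays alone, as arrays 2 and 3 share a dye orientation. On arrays 2 and 3 themselves W43233 had 0.017 and 0.11, and T21224 had 0.26 and 0.002. With loess within print blocks R30510 stood at 0.66 and R30064 at 0.87, and the other 7 lay between 0.85 and 1.29. T21744 had log2 ratios of 3.40, 0.33 and 0.022 on arrays 1, 2 and 3. W43305 had 2.91, 0.40 and 0.42. In both, array 1 was far above the other 2 arrays. On array 2 neither channel of W43305 and only the W7 channel of T21744 exceeded the blank spots, so both ratios on array 2 rest on background-level signal. T20431, with the second lowest p of all clones, had 2.27, 0.29 and 0.072, a fitted ratio of 1.14 (SE 0.20) and an adjusted p of 0.515. With loess within print blocks its fitted ratio was 0.85 (adjusted p = 1). Without array 1 it was 0.73, again with the dye term from the TFP arrays alone. R30064, T21224, H76796, R30510, R65338 and W43233 likewise had array 1 highest, between 1.95 and 2.83, with at most 0.78 on arrays 2 and 3. Of the 10 clones, 8 lay in the first column of print blocks, and 2 exceeded the blank spots in both channels on all 3 arrays. On array 2 the La plus DMSO channel of 7 and the W7 channel of 3 did not exceed the blanks.

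R30034 was the exception among these 10 clones. Its log2 ratios were 0.90, 1.5 and 1.49 on arrays 1, 2 and 3, an SD of 0.34, and it lay in the fourth column of print blocks. The fitted ratio was 1.26 (SE 0.21, 95% interval 0.80 to 1.73, adjusted p = 0.515), a 2.40-fold higher level after W7. R30034 was called with array weights (1.30, SE 0.17, adjusted p = 0.0178) and from arrays 2 and 3 alone (1.49, SE 0.17, adjusted p = 0.0382). Without La it stood at 2.71 and 3.15 on the W7 arrays and at 2.03 to 2.5 on the TFP arrays.

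The 10 lowest fitted ratios ran from -0.83 to -0.62, and in the common fit none had an adjusted p under 1. Their W7 channel was dim: on array 1 it did not exceed the blank spots for 8 of the 10, H37375 and R90467 being the exceptions, and on array 2 it did not for 3. R90467 alone exceeded the blanks in both channels on all 3 arrays. Without array 1, with the dye term from the TFP arrays alone, the fitted ratios ran from -1.29 for N96738 to -0.10 for W43391. In that fit R65161 stood at -0.28 and N38371 at -0.45. N38371 had -1.35, -0.26 and -0.66 on arrays 1, 2 and 3, with array 1 farthest from 0. H37375 had -0.21, -1.20 and -1.08, with array 1 nearest to 0. H77044 had -0.68, -0.68 and -0.70 and W43735 had -0.77, -0.73 and -0.59, with the W7 channel not above the blanks on array 1 in either. N96738 had -0.63, -0.83 and -0.74. The W7 channel of N96738 and T76382 exceeded the blank spots on 1 array out of 3. R90467, T45919, T76382, W43391 and R65161 lay between -1.26 and -0.94 on array 1, and their values on arrays 2 and 3 were -0.61 or nearer to 0. None of the 10 lowest clones lay in the first column of print blocks.

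**Figure D3:**
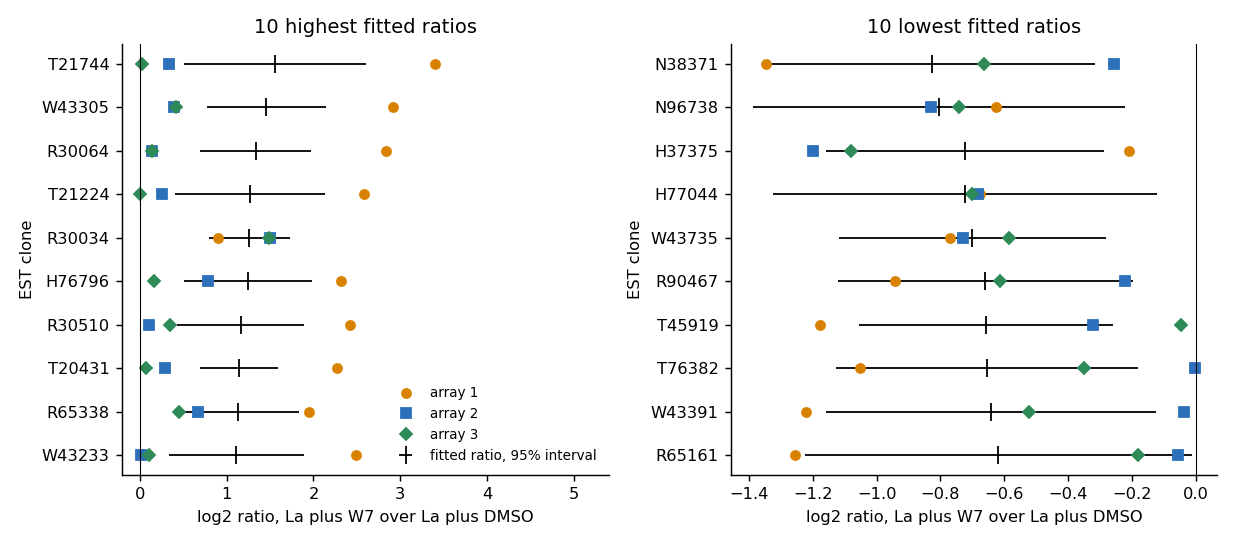
Log2 ratio (x axis) of La plus W7 over La plus DMSO for the 10 clones with the highest (left) and the 10 with the lowest (right) fitted ratio (y axis, clone names), with a point for each array and the fitted ratio with its 95% interval as a bar. Array 1 is the highest point in 9 of the 10 clones on the left, and R30034 is the clone with arrays 2 and 3 on top.

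The clones that responded to the antagonists without La were then followed on the La plus W7 arrays, which were not used to choose them. A list of 94 clones had a log2 ratio of 1 or more on all 3 TFP arrays and both W7 arrays. Their median log2 ratio on the La plus W7 arrays was 0.20, 0.31 and 0.66, a mean of 0.39 ± 0.24 (SD, n = 3 arrays) and a ratio of 1.31. The median over all 9180 clones was 0.0016 ± 0.0048. Above 0 stood 72, 78 and 87 of the 94 clones on arrays 1, 2 and 3, and 57 of the 94 (60.6%) were above 0 on all 3, where 11.4% of all clones were. At 1 or more stood 3, 5 and 15 of the 94, beside 3.67%, 0.305% and 0.392% of all clones, so the 3 on array 1 were near the share over all clones.

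On the arrays that chose the list, its median was 1.89 ± 0.040 for TFP (SD, n = 3) and 2.17 ± 0.19 for W7 (SD, n = 2). W7 array 2, known only from the authors' deposited table and not used in the choice, gave a median of 1.91 in that table, with 94 of 94 clones above 0. In the same table the La plus W7 arrays gave medians of 0.15, 0.30 and 0.66. TFP arrays 1 and 2 share dye orientation and scan set with La plus W7 arrays 2 and 3. Within that set the medians were 1.93 and 1.86 for TFP, beside 0.31 and 0.66 for La plus W7. There the antagonist and La change together, and the TFP arrays helped to choose the list.

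**Figure D4:**
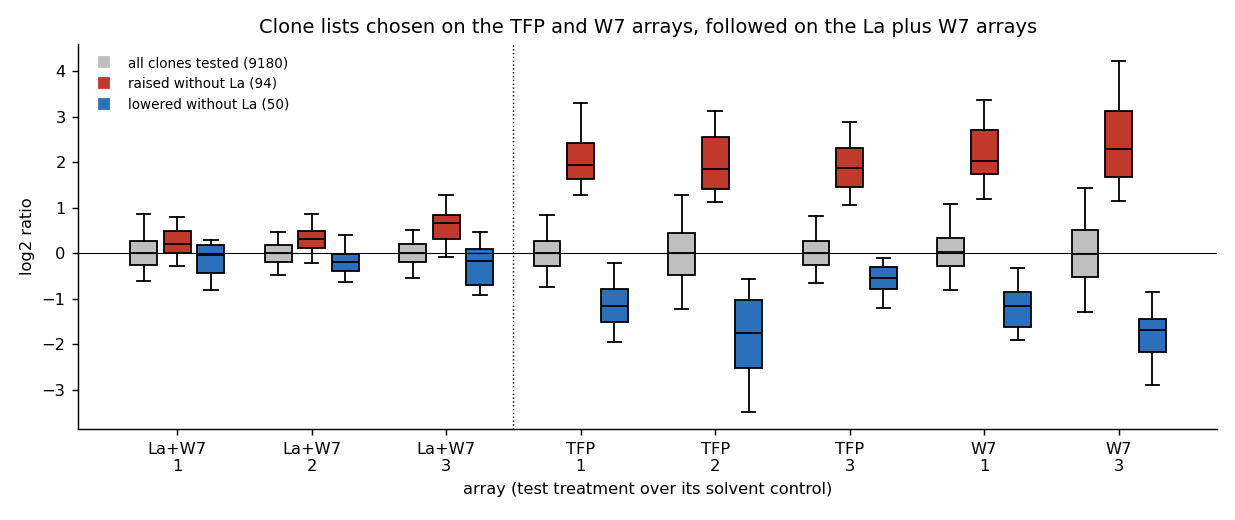
Log2 ratio (y axis) on each array (x axis) for all 9180 clones tested, the 94 clones raised and the 50 clones lowered without La; boxes span the quartiles with the median as a line, and whiskers run from the 5th to the 95th percentile. The lists were chosen on the 5 arrays to the right of the dotted line, and on the La plus W7 arrays their boxes lie near 0, with the raised list highest on array 3 at a median of 0.66.

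In the common fit of 11 arrays 0 of the 94 clones were called with La (0% of all clones), and 13 were higher at an unadjusted p under 0.05 (1.9% of all clones). Array weights called 1 of the 94 and arrays 2 and 3 alone called 4, beside 1 and 4 over all 9180 clones. The 3 arrays alone with a dye term called 5, beside 102 over all clones. These 5 were R30034, R29923, T43246, T43596 and T43911. The fitted ratio with La had a median of 0.34 and reached 1 in 2 clones. The upper end of its 95% interval lay below 1 for 53 of the 94 clones (56.4%), beside 92.6% of all clones, and below the fitted W7 ratio without La for 94 of 94. The choice of the list on the W7 arrays raises that second ratio, and the fitted values share a dye term with the arrays that chose the list, so this count is a description. The mean over the 3 arrays ran from -0.29 to 1.29, reached a 1.5-fold higher level in 15 clones and was below 0 in 9. Across the 94 clones it had a Pearson correlation of 0.409 and a Spearman correlation of 0.344 with the mean over the 5 arrays without La. The median quotient of the 2 means was 0.177, with quartiles of 0.116 and 0.253.

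The 10 clones of the list with the highest mean without La had fitted ratios of 0.33 to 0.83 with La. T22041, the highest without La at 4.57 and 4.52 on the W7 arrays, had log2 ratios of 0.73, 0.60 and 0.77 on the La plus W7 arrays. The 3 values lie close together (SD 0.087) and give a fitted ratio of 0.74 (SE 0.19, adjusted p = 1). T43596, at 3.68 and 3.76 on the W7 arrays, had 0.27, 1.17 and 1.47 with La, and array 1 was the lowest of the 3. H37034 had 0.25, 0.48 and 0.73. N65907 had -0.11, 0.53 and 1.04. H76238, T21057, T46733 and T42340 likewise had their lowest value on array 1 and their highest on array 3, from -0.065 to 0.36 on array 1 and from 0.59 to 1.51 on array 3. N38224 had 0.55, 0.17 and 0.85 and H76724 had 0.59, 0.18 and 0.50, with array 2 lowest.

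The top of the list with La was formed by a few clones that arrays 2 and 3 both placed above 1. T43246, chosen after its values were seen, had 0.31, 1.32 and 2.03 and a fitted ratio of 1.09 (SE 0.25, adjusted p = 1). R29923 had 0.41, 1.24 and 1.51 and a fitted ratio of 0.96 (SE 0.21, adjusted p = 1). Over all 9180 clones, 5 were at 1 or more on both arrays 2 and 3. These were R30034, T43246, R29923 and T43596, all in the raised list, and H76912, which had -0.34 on array 1. In a fit of arrays 2 and 3 alone the first 4 were the calls made, with adjusted p between 0.0382 and 0.0428 on 1 residual degree of freedom, and dye bias cannot be told apart from treatment there.

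**Figure D5:**
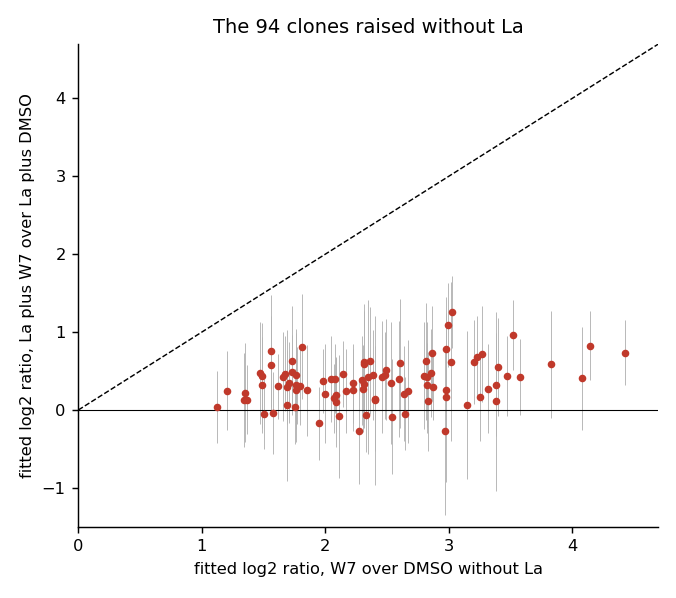
Fitted log2 ratio of W7 over DMSO without La (x axis) against that of La plus W7 over La plus DMSO (y axis) for the 94 clones raised without La, with 95% intervals for the y values and a dashed line of equal ratios. Every interval ends below the dashed line, and the highest point is R30034 at 1.26.

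For falls the planned rule, -1 or less on all 5 arrays without La, gave 0 clones. A looser rule, chosen after that, took the 50 clones that were below 0 on all 5 arrays with a mean of -1 or less. Their medians on the La plus W7 arrays were -0.028, -0.19 and -0.17, a mean of -0.13 ± 0.089 (SD, n = 3 arrays), beside -1.15 ± 0.60 for TFP and -1.43 ± 0.38 for W7 on the arrays that chose them. Below 0 on all 3 La plus W7 arrays stood 16 of the 50 (32%), where 11.4% of all clones did. In the common fit 0 of the 50 were called with La, and 0 had an unadjusted p under 0.05. The 3 arrays alone with a dye term called 1 of the 50, H77253 (-0.80, SE 0.15, adjusted p = 0.0352), beside 102 over all 9180 clones.

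Of the 10 clones of this list with the lowest mean without La, 9 had a fitted ratio below 0 with La in the common fit, and 0 of the 10 had a 95% interval there that excluded 0. Without La plus W7 array 1, 6 of these 9 had a fitted ratio above 0, from 0.025 for T21036 to 0.77 for N65342. That fit took its dye term from the TFP arrays alone, since La plus W7 arrays 2 and 3 share a dye orientation. N65342 and T21036 lay below 0 on arrays 2 and 3 themselves, as their values below show. H77253 had -0.84, -0.81 and -0.73 on arrays 1, 2 and 3, the lowest mean of the 10. N65342 had -0.27, -0.20 and -0.23 and N97158 had -0.41, -0.19 and -0.34, so each lay below 0 on every array but by less than a 1.5-fold change. T21036 had -0.19, -0.65 and -0.63. N97015 had -0.092, -0.32 and -0.063. N65297 and N64947 were above 0 on array 1 at 0.18 and 0.21 and below 0 on the other 2 arrays, and T88085 was above 0 on array 2 at 0.40. H35993 and T20932 were below 0 on all 3 arrays.

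Whether the W7 response differed with and without La was tested as a difference within the same fit. Each response is a ratio to its own solvent control, so the levels of both controls enter the difference. Both W7 arrays used carried the W7 RNA in Cy3. The difference therefore rests on a dye term that the TFP and La plus W7 arrays alone could estimate. It was called for 11 clones (0.12%), each higher without La, and all 11 belong to the 94 raised clones, whose choice used the W7 arrays. At an unadjusted p under 0.05, 489 clones were higher (5.33%) and 366 lower (3.99%) without La. R29923 combined a called difference of 2.56 (SE 0.37, adjusted p = 0.0224) with the fitted ratio of 0.96 with La given above. N65692, with a difference of 2.69 (SE 0.39, adjusted p = 0.0224), had -0.17, -0.19 and 0.049 on the La plus W7 arrays. For R30034 the difference was 1.77 (SE 0.39, adjusted p = 0.154) and was not called. With the scan set as a fixed term the difference was called for 0 clones, and without La plus W7 array 1, 2 or 3 it was called for 0, 2 and 7 clones. The scan set and the dye cannot be told apart on these arrays, since 0 of the 5 scan sets held both orientations.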

How the data were processed

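The authors deposited scanner output for each 2-colour array, and each channel's spot intensity and local background were used as deposited, not normalized per the file headers. They also deposited a table with 1 linear ratio of test to control per spot and array, and the sources used here do not say how it was normalized; its median was 0.95, 1 and 1.01 on the 3 La plus W7 arrays. The scanner files of the first and second W7 against DMSO array were identical and were counted as array 1, so 11 arrays were used. The alternative with deposited ratios used all 12 arrays. Of 12288 spots, 323 were blanks and 13 were unnamed or not assigned, and these were left out; repeat spots of 26 clones were averaged. Intensities were corrected with normexp (offset 50) and log2 ratios normalized by loess (span 0.3) within each array in limma 3.58.1 under R 4.3.3. A clone was kept if 1 or both channels lay above the 95th percentile of blank spots on at least 2 arrays of every experiment. One limma fit (lmFit, eBayes) estimated each experiment separately and a dye term in common, with 6 residual and 6.14 prior degrees of freedom, and p-values were adjusted by Benjamini-Hochberg over the 9180 clones. Of the arrays used, only those of TFP and of La plus W7 held both dye orientations, so they alone set the dye term. The fit was tested on simulated data with independent noise, no difference between scan sets and no shift by slide position. That test does not cover these features of the real arrays.

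Named clones were the 10 highest and 10 lowest fitted ratios among clones of 1 sign on all 3 arrays with an unadjusted p under 0.05, the 10 most extreme clones of each list, and clones called for a difference. For the lowered list this part of the rule was applied to the looser list. Members, lists and rules were chosen with earlier results of these data known. The gene lists planned for calmodulin, touch, calcium transport and cold genes were not applied, because clones could not be paired with genes, and no sequences are shown for the same reason.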

Additional observations from a re-analysis of the deposited data

Results flagged for a closer look

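A test of the W7 response without La minus that with La called 11 clones, with limma adjusted p between 0.00177 and 0.05. Each had the higher ratio to its own solvent control without La. The difference of log2 ratios was 3.69 for T22041, 3.67 for H37034, 3.32 for T43596, 3.16 for H76724, 3.09 for T43145 and 3.04 for N96972. It was 3.03 for N65907, 2.69 for N65692, 2.58 for T22510, 2.56 for R29923 and 2.39 for T88194. Fitted ratios with La ran from -0.06 for T88194 to 0.96 for R29923. The median of the 11 clones on the La plus W7 arrays was 0.25, 0.38 and 0.72. The W7 against La plus W7 arrays, all with W7 RNA without La in Cy3, compare the levels after W7 directly. There T22041 had 3.33, 2.83 and 3.10, and T22510 had 2.71, 2.41 and 2.36. H37034 had 1.48, 0.51 and 1.76, and N96972 had 1.35, 0.035 and 0.74, below their differences of ratios. The part of the solvent controls in the differences was not tested. Both W7 arrays in the test had W7 RNA in Cy3, so the TFP and La plus W7 arrays alone set its dye term. With the scan set as a fixed term 0 of the 11 were called (adjusted p from 0.297 to 0.324), with differences of 2.06 for R29923 to 4.6 for H37034. Without the dye term 10 of the 11 were called, and T88194 was not (1.82, adjusted p = 0.0691).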

How the results depend on the processing

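The results were recomputed under 27 other settings, 11 of which left out 1 array each. Clones called between La plus W7 and La plus DMSO numbered 0 without any single array, 1 with array weights, 4 from arrays 2 and 3 alone, and 102 (96 higher, 6 lower) from the 3 arrays alone with a dye term. Of these 102 clones, 59 were under 0.5 in size on both arrays 2 and 3. The clones at an unadjusted p under 0.05 numbered 345 with no filter on dim spots, 145 with both channels above the blanks, 469 with array weights, 343 and 1167 from the 3 arrays alone without and with a dye term, and 803 from arrays 2 and 3 alone. Leaving out 1 array gave 151 to 309. The mean correlation between the arrays was 0.157 for arrays 2 and 3 alone and -0.142 to 0.157 with 1 array left out.

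The difference between the W7 responses was called for 4 clones with median centring, 76 (61 higher without La) with the deposited ratios, 1 with trend and robust variance, 52 (49 higher) without the dye term, 0 with the scan set as a fixed term and 10 with it as a random block, which was added after seeing the data. Leaving out 1 array gave 0 (La plus W7 array 1) to 33 (W7 array 1), with 3 and 6 without TFP arrays 1 and 3 and 4 without W7 array 3. With the replicate number as a block it was called for 2 clones, and 0 clones were called for La plus W7. Array deviations of the same number correlated at -0.568 to 0.481 and those of different numbers at -0.559 to 0.559. These ranges cannot tell whether the numbers pair the arrays, since the deviations of both W7 arrays mirror each other by construction.

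The median of the 94 raised clones stayed between 0.26 and 0.49 and that of the lowered clones between -0.20 and -0.091 in every setting run for them. Of 46 named clones, 37 kept the sign of the fitted ratio in every setting run, and 9, all with values near 0 or in the lowered list, did not. N65297 (0.054 as reported) was -0.023 with median centring, -0.020 with the deposited ratios, -0.23 without the dye term, with all arrays or the 3 alone, -0.13 from the 3 arrays alone with it and -0.43 from arrays 2 and 3 alone. N65692 was 0.027 with print-tip loess and 0.011 with array weights, N65342 was 0.036 and 0.0024, N64947 was 0.046 with array weights, and T88085 was 0.050 with median centring and 0.13 with array weights. T88194 was 0.081 without the dye term, with all arrays or the 3 alone, and 0.27 from arrays 2 and 3. With 1 array left out, N65297 ran from -0.22 to 0.95, N65692 from -0.18 to 0.31, N64947 from -0.47 to 0.71, N97158 from -0.38 to 0.77, N65342 from -0.25 to 0.77, T21036 from -0.42 to 0.025, H35993 from -0.59 to 0.58 and T88085 from -0.46 to 0.62. The upper end of each of these ranges came from the fit without La plus W7 array 1. Its dye term rested on the TFP arrays alone. H35993, for one, stood at -0.27 and -0.32 on La plus W7 arrays 2 and 3. What moved the signs under the other settings was not tested.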

Other observations

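A ratio of 1.5 or more on all 3 arrays, a description chosen after the data were seen, was found for 8 clones that were higher and 3 that were lower after La plus W7, and none of them was called in the common fit of 11 arrays. The 3 arrays alone with a dye term, on 1 residual degree of freedom, called R30034 (adjusted p = 0.00523), T88199 (0.00879), T22328 (0.0288), H77253 (0.0352), T88464 (0.0397) and R65111 (0.0497), and other fits also called R30034. The rule used the values of these same 3 arrays, so the calls from them give it no separate support. Over all 9180 clones the fit of the 3 arrays alone with a dye term called 102. The higher clones R30034 and T22041 belong to the list raised without La, whereas R65111, R65234, T22328, T44208, T88199 and T88464 do not. R65234 had 0.59, 0.73 and 0.82 with La and 2.34 and 1.90 on the W7 arrays without La (limma adjusted p = 0.00657), with 1 TFP array under 1. T44208 had 0.83, 0.61 and 0.61 with La and 4.69 and 2.47 without (limma adjusted p = 0.0258), also with 1 TFP array under 1. In R65234 the La plus DMSO channel exceeded the blank spots on 1 of the 3 La plus W7 arrays and the W7 channel on 2. In R65111 the La plus DMSO channel did so on 2. T88199 had 1.30, 0.87 and 0.90 on arrays 1, 2 and 3, with 0.71 and 1.5 on the W7 arrays without La. T22328 had 0.93, 0.76 and 0.73, with 1.13 and 0.62 on the W7 arrays without La, so the ratios with and without La overlapped in both clones. R65111 had 0.68, 0.94 and 0.68, and its values on the W7 arrays without La were -0.62 and 0.047. T88464 had 0.82, 0.68 and 0.83, with -0.30 and 0.42 without La. The lower clones were H77044, N96738 and H77253.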
